A study of Mus musculus with 2 samples.

Results

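The BH3-only genes encode the proteins that set off the mitochondrial pathway of apoptosis, and 8 of them were followed in mouse leukaemia cells sorted by a metabolic sensor: Bmf, Pmaip1 (Noxa), Bbc3 (Puma), Bcl2l11 (Bim), Bid, Bad, Bik and Hrk. The genes were chosen by name, and their probes were the non-control probes whose RefSeq accession in the array design maps to one of these symbols. This gave 9 probes, 2 for Bad and 1 for each of the other 7 genes, among 20618 genes with a named probe. The cells came from bone marrow with B-cell acute lymphoblastic leukaemia (B-ALL), and both groups are labelled as 8 weeks of age. They carried SoNar, a genetically encoded fluorescent sensor of cytosolic NADH and NAD+, and its fluorescence ratio was the gate that split them into SoNar-high and SoNar-low cells. Each of these populations was profiled on 1 one-colour Agilent array, so each group was 1 array. The titles of the samples name them after N-myc (N-myc-high, N-myc-low) in place of the sensor, and the groups here follow the sensor label. The strain, the oncogene that made the leukaemia and the number of mice behind each population are not given in the sources used here.

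BH3-only proteins are sensors of damage and starvation. They bind survival proteins of the BCL2 family (BCL2, BCL-XL, MCL1) through a short helix, the BH3 region, and free or directly activate the pore-forming effectors BAX and BAK, which open the outer mitochondrial membrane. B-lineage cells depend on this balance, since BIM and PUMA remove developing lymphocytes that fail selection and glucocorticoids kill lymphoid leukaemia largely through BIM and BMF.

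With 1 array per population the design allows no test, and no difference below has a replicate check. The number of arrays limits the precision, and fewer cells of a type cannot be told apart from less RNA per cell. The processed signal is given in intensity units with the scanner software's own error for 1 spot, which covers neither sorts nor animals. Differences are log2 values, SoNar-high minus SoNar-low, after each array's signals were divided by its 75th percentile (436 units for SoNar-high and 501 for SoNar-low). A gene was measured when a probe was well above background on both arrays, and it was called at 2-fold, a rule of size. Of the SoNar-high spots 44.8% were well above background, against 72.9% of the SoNar-low spots. The lowest such signal was 46.4 and 19.7 units, in the same order. The arrays were scanned in separate sessions, so a scan effect cannot be told apart from the sort. Of 14 B-lineage markers 9 were measured, among them Cd79a, Pax5, Ebf1, Vpreb1 and Dntt, and Vpreb2 was seen on the SoNar-low array only. The pre-B genes Igll1, Rag1, Rag2 and Il7r were not well above background on either array.

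Of the 8 BH3-only genes 6 were measured, and they did not move together. Bmf was 2.10-fold higher on the SoNar-high array and Pmaip1 1.66-fold higher. Bbc3 and Bad lay close to the median of all genes, and Bcl2l11 and Bid were 1.16-fold and 1.27-fold lower. Bik and Hrk were not well above background on either array. Bmf was the 1 gene past 2-fold higher and 0 were past 2-fold lower, where 2.32% of the 10521 measured genes passed 2-fold upward and 4.44% passed it downward. The median of the 6 was 0.19, beside 0.22 for all measured genes, and 3 of the 6 lay above that median gene and 3 below it.

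**Figure D1:**
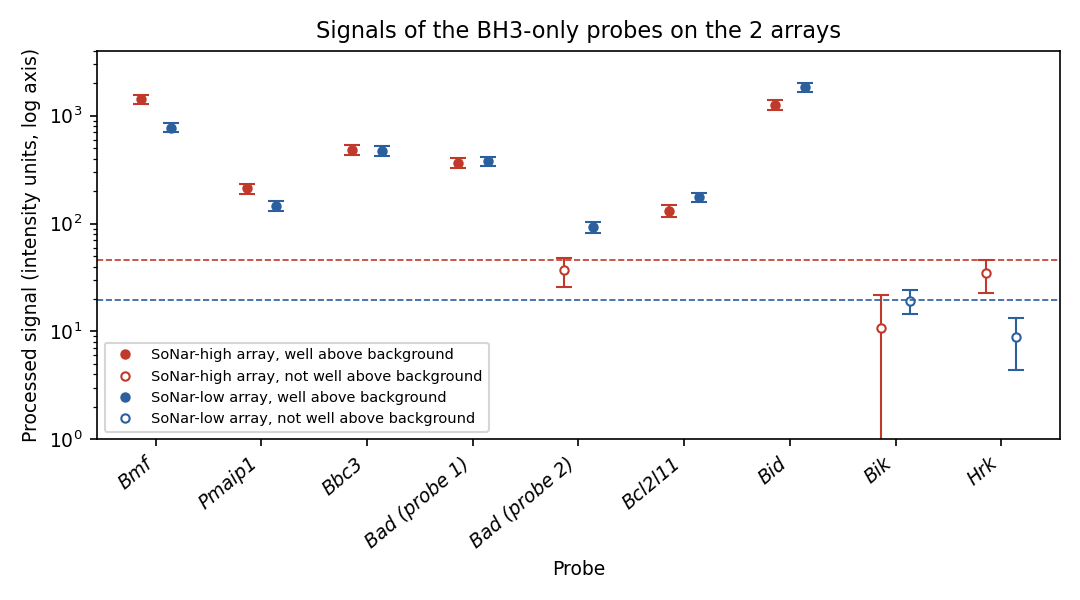
Processed signal (intensity units, log axis) of the 9 BH3-only probes on the SoNar-high array (red) and the SoNar-low array (blue), 1 spot per point; bars are the scanner software's error for that spot, and the lower bar of Bik on the SoNar-high array runs off the axis. Open points were not well above background, and each dashed line is that array's lowest signal well above background. Bmf and Pmaip1 lie higher in red, Bid lies higher in blue, and Bbc3 overlaps within its bars.

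Bmf encodes a BH3-only protein that is held on the actin-linked myosin motor by a dynein light chain and is released when cells lose attachment. Its probe (NM_138313) read 1424 ± 143 units on the SoNar-high and 777 ± 77.8 units on the SoNar-low array. The SoNar-high signal was thus the higher of the pair, and the error bars do not overlap before scaling. After scaling the difference was 1.07 ± 0.20 (error of 1 spot on each array), and 98.5% of measured genes had a lower one. The call sat on the threshold. Of 15 other ways of processing, 5 could not move the value of this single bright probe. The other 10 moved it to between 0.78 and 1.64, and under 3 of these Bmf was at least 2-fold higher. Relative to the median gene it lay at 0.85.

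Bid encodes the protein that caspase-8 cleaves to carry a death receptor signal to mitochondria, and it stood at the other end of the range. Its probe (NM_007544) read 1266 ± 127 units on the SoNar-high and 1842 ± 184 units on the SoNar-low array. The SoNar-low array gave the higher signal, with error bars that do not overlap before scaling, and the difference was -0.34 ± 0.20. Among the alternatives it was positive only with scaling to the array median, which raised every gene by the same amount. The distance between Bmf and Bid does not depend on how the arrays are scaled to each other. It was 1.42 on the log2 scale, with a combined spot error of 0.29. Normexp, quantile normalization, loess and the deposited table, the alternatives that changed it, gave 1.24 to 1.47.

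The promoters of these 2 genes are shown because they stand at the ends of the range. RefSeq (build GRCm38.p6) lists 3 starts for Bmf, of which the one furthest upstream is given, and 1 for Bid. Each window runs from 250 bases before to 50 after the start, 5′ to 3′ on the gene's own strand, and capitals mark the GC box GGGCGG read on either strand, a letter pattern that SP1-type factors recognise.
Bmf, chr2:118549637-118549936, minus strand: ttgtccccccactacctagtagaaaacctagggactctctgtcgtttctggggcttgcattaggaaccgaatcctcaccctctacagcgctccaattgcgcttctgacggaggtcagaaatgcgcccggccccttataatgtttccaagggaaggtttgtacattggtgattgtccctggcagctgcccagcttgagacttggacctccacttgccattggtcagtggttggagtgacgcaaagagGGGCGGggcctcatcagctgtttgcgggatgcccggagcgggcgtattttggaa
Bid, chr6:120916775-120917074, minus strand: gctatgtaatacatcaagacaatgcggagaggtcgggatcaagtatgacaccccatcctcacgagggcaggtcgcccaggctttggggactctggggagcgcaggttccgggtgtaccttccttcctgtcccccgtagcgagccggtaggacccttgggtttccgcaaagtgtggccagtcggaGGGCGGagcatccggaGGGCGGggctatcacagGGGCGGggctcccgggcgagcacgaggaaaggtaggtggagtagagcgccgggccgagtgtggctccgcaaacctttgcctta
The Bmf window holds 1 GC box and is 55.3% G or C, and the Bid window holds 3 and is 63.3% G or C. The other 2 starts of Bmf hold none. Over all 32851 RefSeq windows of the same length 35.7% hold a GC box, and 9 of the 12 BH3-only windows searched do. These 12 belong to Bmf, Bid, Bbc3, Bcl2l11, Bad and Hrk, and no window of Pmaip1 or Bik was searched. They run from 53.3% to 78% G or C, where the median of all windows is 52.7%, and some Bbc3 windows overlap. The cAMP response element TGACGTCA was found in 0 of these 12 windows and in 1.79% of all windows. The p53 half-site was found in 1 of the 12, a downstream start of Bmf, and in 8.36% of all. A match of letters is no evidence of binding.

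Pmaip1 encodes NOXA, a small protein that binds MCL1 and a target of p53 and of the integrated stress response. Its probe (NM_021451) read 212 ± 23.1 units on the SoNar-high and 146 ± 15.2 units on the SoNar-low array. The SoNar-high signal was the higher, with error bars that do not overlap before scaling, and the difference was 0.73 ± 0.22. Under the alternatives that measured the gene it lay between 0.44 and 1.30. In the log2 table deposited by the authors Pmaip1 read 8.47 and 7.46, a difference of 1.01, and Bmf read 10.9 and 10.03, a difference of 0.84. The order of these 2 genes was therefore turned there, as it was with quantile normalization and with loess on the level. Bmf and Pmaip1 differed from each other by 0.34 with a combined spot error of 0.30, which does not separate them.

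Bbc3 encodes PUMA, which binds all survival proteins and is the main p53 effector of lymphocyte death. Its probe (NM_133234) read 482 ± 49.2 units on the SoNar-high and 475 ± 47.6 units on the SoNar-low array. The 2 signals overlap within their errors. The scaled difference of 0.22 ± 0.21 was that of the median gene, and 50.1% of measured genes lay lower.

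Bcl2l11 encodes BIM, the BH3-only protein that growth factor withdrawal and FOXO factors raise in B cells. Its probe (NM_207680) read 132 ± 16.2 units on the SoNar-high and 175 ± 17.9 units on the SoNar-low array. The SoNar-low array read higher, with error bars that do not overlap before scaling. After scaling the difference was -0.21 ± 0.23, within the error of the spots. Its sign was not stable. It was positive with median scaling, with quantile normalization and in the authors' deposited log2 table, where it lay at 0.09.

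Forkhead factors of the FOXO group are known to act on Bbc3 and Bcl2l11, and the forkhead letters TGTTTAC were found in 1 window of each. These 2 were the only ones of the 12 windows with them, against 3.65% of all windows. They are shown because they hold this motif, with the forkhead letters and the GC boxes in capitals; in Bcl2l11 the forkhead letters lie on the opposite strand and read GTAAACA.
Bbc3, chr7:16310011-16310310, plus strand: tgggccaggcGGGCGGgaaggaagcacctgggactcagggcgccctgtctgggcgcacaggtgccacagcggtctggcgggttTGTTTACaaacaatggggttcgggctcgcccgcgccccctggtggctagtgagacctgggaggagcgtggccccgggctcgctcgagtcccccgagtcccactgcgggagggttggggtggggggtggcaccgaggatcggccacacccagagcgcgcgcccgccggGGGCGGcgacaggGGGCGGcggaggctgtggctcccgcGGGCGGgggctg
Bcl2l11, chr2:128125788-128126087, plus strand: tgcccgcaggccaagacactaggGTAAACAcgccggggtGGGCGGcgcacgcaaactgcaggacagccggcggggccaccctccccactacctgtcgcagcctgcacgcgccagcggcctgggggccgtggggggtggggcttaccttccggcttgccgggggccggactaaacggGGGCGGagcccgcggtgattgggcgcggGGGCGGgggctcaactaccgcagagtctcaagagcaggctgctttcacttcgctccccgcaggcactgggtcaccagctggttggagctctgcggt
The forkhead letters begin at base 84 of the Bbc3 window and at base 24 of the Bcl2l11 window, counted from 1 at the 5′ end. The E-box CACGTG, to which MYC and MAX bind, was found in 1 of the 12 windows, another start of Bbc3, and in 7.15% of all windows. Of the factors themselves, named after their values were seen, Foxo1 was at 0.67, with 2 probes at 0.35 and 1.00, and Trp53 was at -0.10. Foxo3 was seen on the SoNar-low array only, at 28.9 units, with no fold to give.

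Bad encodes a BH3-only protein that survival kinases such as AKT phosphorylate and that 14-3-3 proteins then hold in the cytosol. It also sits in a complex with glucokinase. Its first probe (A_55_P1962234) read 367 ± 38.3 units on the SoNar-high and 379.8 ± 38.2 units on the SoNar-low array, a scaled difference of 0.15 ± 0.21. Its second probe (A_65_P16603), designed on the same transcript NM_007522, read 36.9 ± 11.3 and 92.5 ± 10.2 units. That probe was dim with SoNar-high, where it was not well above background, so it gives a bound: the SoNar-high signal was at least 1.74-fold lower. The first probe's difference was within the error of its spots, so the direction of Bad was not settled. With the dim probe averaged in, Bad lay at -0.49.

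Bik and Hrk, a BH3-only protein of the endoplasmic reticulum and one known from dying neurons, gave no measured difference. Bik (NM_007546) read 10.9 ± 10.8 units on the SoNar-high and 19.3 ± 4.66 units on the SoNar-low array. Hrk (NM_007545) read 34.6 ± 11.9 units on the SoNar-high and 8.80 ± 4.43 units on the SoNar-low array, the higher signal being on the SoNar-high array. When a probe was instead held to be above background at a net signal over 3 SD of the negative controls, Hrk passed on the SoNar-high array alone and was at least 2.25-fold higher there, while Bik passed on the SoNar-low array alone with no fold to give.

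**Figure D2:**
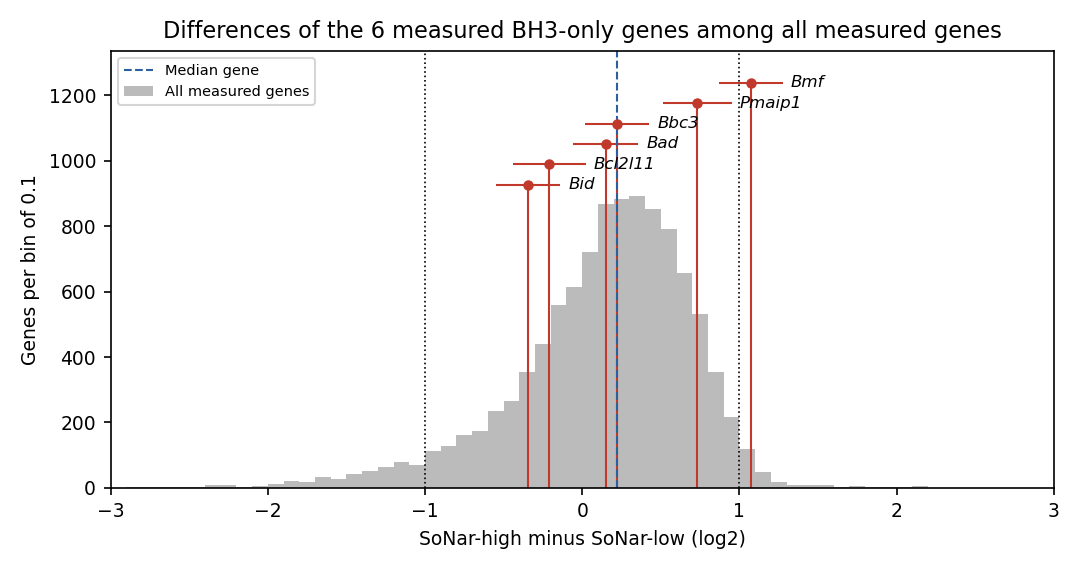
Number of genes per bin of 0.1 (grey) against the SoNar-high minus SoNar-low difference (log2) over 10521 measured genes; the axis shows -3 to 3. Red points are the 6 measured BH3-only genes with the error of 1 spot on each array, the dashed line is the median gene (0.22) and the dotted lines are 2-fold. Bmf lies just past the right dotted line and Bbc3 on the median gene.

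Set in order, the differences ran Bmf, Pmaip1, Bbc3, Bad, Bcl2l11 and Bid. Of the 15 pairs of genes 6 lay further apart than 2 combined spot errors. Those were Bmf against Bbc3, Bad, Bcl2l11 and Bid, and Pmaip1 against Bcl2l11 and Bid. No neighbours in the order were separated by this measure. Of 14 alternatives that measured all 6 genes, 8 shift every gene alike or leave these probes as they are and so cannot change the order. Of the 6 that can, 1 (normexp) kept the whole order. Bmf stood first under 3 of the 6 and Pmaip1 under the other 3, and Bid stood last under 4 and Bad under 2.

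**Figure D3:**
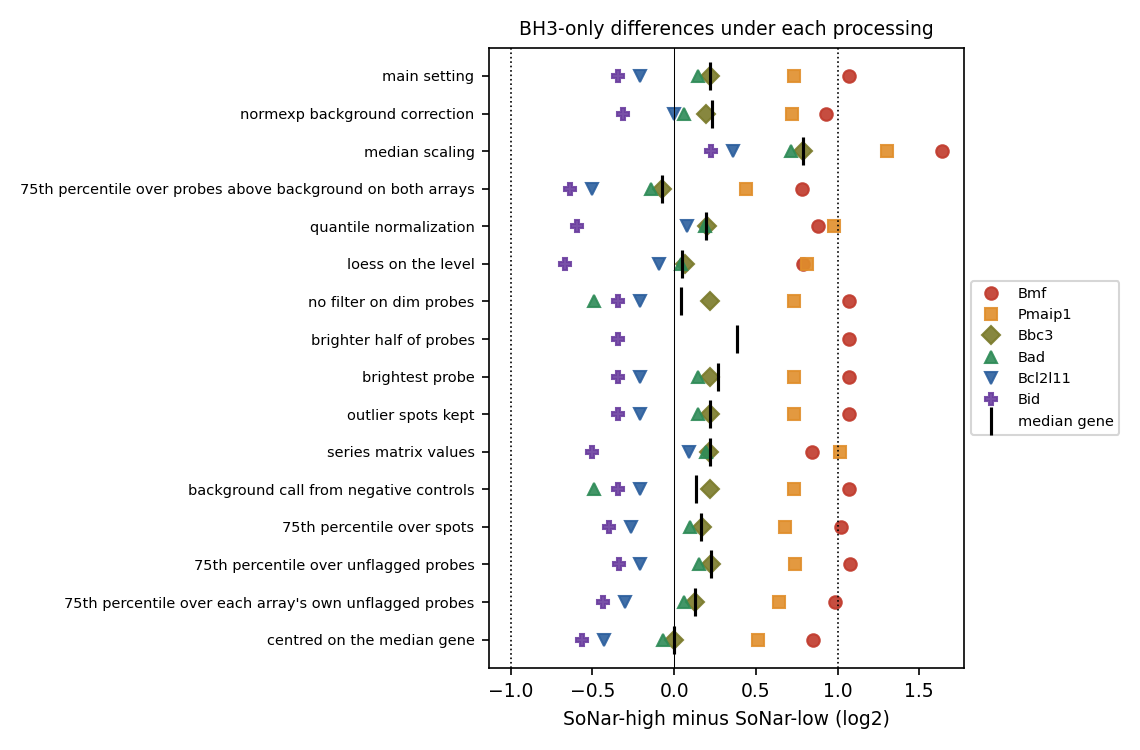
SoNar-high minus SoNar-low difference (log2, horizontal axis) of the 6 measured BH3-only genes under the main setting and 15 alternatives (rows), with the median gene as a vertical tick and 2-fold as dotted lines. The whole set slides with the scaling while Bmf and Pmaip1 stay on the right and Bid lies on the left, with Bad further left under the settings that let its dim probe in; the setting restricted to the brighter probes kept only Bmf and Bid.

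The genes whose proteins the BH3-only proteins bind were compared next. All 3 measured survival genes were higher on the SoNar-high array, none past 2-fold, with a median of 0.62; of all measured genes 66.6% lay above 0, and the median gene was at 0.22. Mcl1, the short-lived survival protein that NOXA binds, was at 0.68 by both of its probes, and Bcl2, the founding survival gene, was at 0.59. Bcl2l1, which encodes BCL-XL, was at 0.62 by 1 probe, reading 706 units with SoNar-high and 526 with SoNar-low. Its second probe read 44.6 and 299 units, a SoNar-high signal at least 5.63-fold lower, so the value of 0.62 rests on the first probe alone. Bcl2l2 was seen on the SoNar-low array only. Of its 2 probes 1 gave a SoNar-high signal at least 1.35-fold lower, and the other, at 41.9 and 47.7 units, had no fold to give. Bcl2a1d was also seen there only, at 27.2 units, with no fold to give, and Bcl2a1c and Bcl2l10 were not well above background on either array. Bcl2a1a and Bcl2a1b had no probe matched by accession. The effector genes Bak1 and Bax lay at 0.72 and 0.25, and Bok was likewise seen with SoNar-low cells only, at 44.2 units, with no fold to give. The median of the survival list stayed positive under all alternatives run, from 0.30 to 1.19. The lowest came with the negative control call, which lets in dimmer probes. The second probe of Bcl2l1 lay at -2.55, so the sign of that gene depends on whether this dim probe is averaged in.

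Around this core, 5 of 8 genes for other proteins with a BH3-like region were measured, with a median of 0.27 and 0 past 2-fold. They ran from Bnip3 (-0.06), a mitophagy receptor, to Huwe1 (0.92), a ubiquitin ligase that degrades MCL1. Bcl2l14 was seen on the SoNar-low array only. By 1 of its 2 probes its SoNar-high signal was at least 2.92-fold lower, and the other, at 28.3 and 31.3 units, had no fold to give. All 9 genes of the apoptosome and the caspases were measured, with a median of 0.60; 8 were above 0, 5 were above the median gene and 0 passed 2-fold. Cycs, which encodes cytochrome c, was highest (0.80, with 2 probes at 0.50 and 1.09). Of 10 transcription factors known to act on BH3-only genes 8 were measured, with a median of 0.16, 4 above and 4 below 0. Jun stood at 0.99, and the p53 relative Trp73 at -1.75 was the 1 gene past 2-fold, by 1 measured probe of 3. Of 11 genes for proteins that bind, cleave or phosphorylate BH3-only proteins 9 were measured, with a median of 0.34 and 0 past 2-fold. Dynll2, the dynein light chain that holds BMF, was highest at 0.82, with 2 probes at 0.32 and 1.31, and the 14-3-3 gene Ywhaz was lowest at -0.15.

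**Figure D4:**
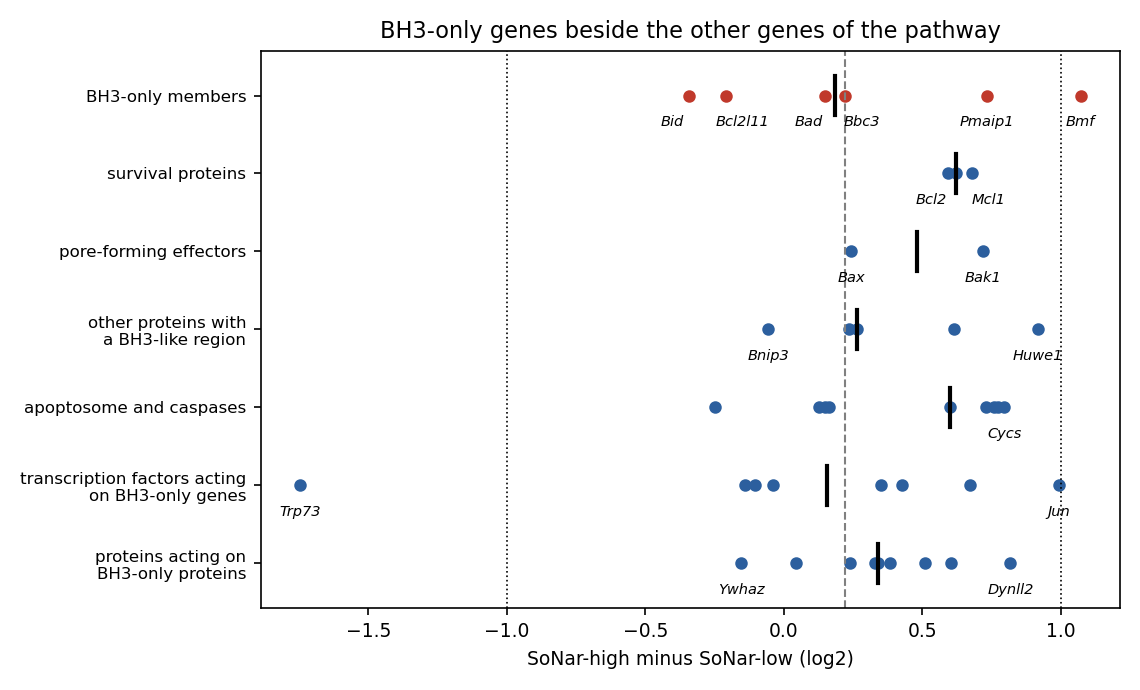
SoNar-high minus SoNar-low difference (log2) of the measured BH3-only genes (red) and of 6 lists of other genes of the pathway (blue), 1 point per gene, with list medians as black bars, the median gene as a dashed line and 2-fold as dotted lines. The BH3-only genes span -0.34 to 1.07, while the 3 survival genes lie together at 0.59 to 0.68, Bcl2l1 by 1 of its 2 probes. Some of the genes at the ends of each list are named.

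Marker genes of other cell types and tissues also differed between the arrays. Of 10 neutrophil markers all 10 were measured and lay below the median gene, with a median of -0.54 and a summed level, in multiples of the array's 75th percentile, of 42.4 for SoNar-high and 50.9 for SoNar-low. Of 10 monocyte and macrophage markers 4 were measured (median -0.70, summed level 1.24 and 1.74), of 10 T and NK cell markers 5 (median -0.93, 5.82 and 6.57) and of 8 erythroid markers 4 (median -1.02, 53.8 and 31.8). Of 10 brain markers 6 were measured (median 0.83, 5.33 and 5.64) and of 10 lung markers 4 (median -0.90, 37.04 and 34.4), while B-lineage markers had a median of 0.31 (95.1 and 74.97). Not all markers followed the median of their list. The macrophage marker Mrc1 (0.61) and the T cell markers Lck (0.99) and Thy1 (1.37) were higher with SoNar-high. The brain markers Snap25 (-1.04) and Syp (-0.58) were lower, while Rtn1 (2.93), Cck (2.18), Eno2 (0.90) and Tubb3 (0.76) were higher. Syt1, also a brain marker, was seen with SoNar-high only, where its signal was at least 6.86-fold higher. The summed erythroid level was carried by Hemgn, an erythroid nuclear protein gene (0.89; 22791 units for SoNar-high and 14153 for SoNar-low). The globin gene Hba-a1 (-1.82), Ermap (-1.62) and Hbb-bt (-0.42) were lower, and 3 erythroid markers were seen with SoNar-low only. The summed lung level was carried by Napsa (0.08) and Lamp3 (0.44). Scgb1a1, a secreted protein of airway club cells, was at -3.31, and 5 lung markers were seen with SoNar-low only, among them the surfactant genes Sftpa1, Sftpc and Sftpb, whose SoNar-high signals were at least 7.38-, 5.90- and 4.32-fold lower. Cd3d and Ccr2 were not well above background on either array. The part of these cell types and tissues in the differences of Bmf, Pmaip1 and Bid was not tested.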

How the data were processed

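Total RNA (1 µg per population, per the labels' protocols) was labelled with Cy3 and hybridised to 1 array each. The deposited scanner files give an intensity per spot, made with Agilent Feature Extraction, whose version is 11.0.1.1 per the file headers and 9.1 per the submitters' processing notes. The processed signal is, per the file headers, background-subtracted and not scaled across the arrays. The value table of the series, as deposited, is in log2 units with a median of 5.90 on both arrays; its differences between the arrays correlated with those of the scanner signals (Pearson's r = 0.914 across 17188 probes, which are not independent), though Bcl2l11 differed in sign, and its centring is not given in the sources used here.

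Control spots and spots flagged as non-uniform or as population outliers were left out; no BH3-only spot was flagged and none was saturated. Replicate spots were averaged on the log2 scale, and each array's 75th percentile over all non-control probes was subtracted. Accessions were matched without versions to RefSeq symbols (27115 of 39085 probes, 20618 genes). A gene's value was the mean over those of its probes that were well above background on each array. The error of a difference combined the scanner software's errors of both spots; probes printed as 10 spots had a median SD of 0.15 for a difference between the arrays (197 probes). A bound sets the bright signal against the dim probe's own signal or that array's lowest signal well above background, whichever is higher. Some probes that were not well above background read above that lowest signal, as Bok did at 61.1 units on the SoNar-high array. The bounds are therefore approximate. E1A control spots of the SoNar-high array were all not well above background, so the arrays could not be scaled on spiked RNA.

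The genes, lists and the naming rule were chosen with earlier results of these data known. All 8 members are named, all survival and effector genes, and of the other lists the highest and lowest gene and any past 2-fold; not every gene this rule picks is reported here. Alternatives were other scalings, limma's normexp correction of the median spot signal (offset 50), quantile normalization, loess (span 0.3), other filters on dim probes, the brightest probe, the deposited log2 table, thresholds of 1.5-fold and 3-fold and a background call at 3 SD of 153 negative control spots. The gene step was tested on simulated data. Tools were limma 3.58.1 in R 4.3.3, and numpy 2.4.6, statsmodels 0.14.6, pandas 2.3.3 and matplotlib 3.10.9 in Python 3.11.15.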

Additional observations from a re-analysis of the deposited data

How the results depend on the processing

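Of the results on the BH3-only genes, 0 members past 2-fold lower and the positive sign of Bmf and Pmaip1 held under all alternatives that gave them. Settings that differ in the reference of the scaling moved all members alike. Median scaling gave Bmf 1.64, Pmaip1 1.30, Bbc3 0.79, Bad 0.72, Bcl2l11 0.36 and Bid 0.23, a member median of 0.75 and 2 members past 2-fold higher, with the median gene at 0.79. The 75th percentile over probes above background on both arrays gave 0.78, 0.44, -0.0714, -0.14, -0.50 and -0.64 in the same order, a median of -0.11 and 0 past 2-fold. Centring on the median gene, added after seeing the data, gave Bmf 0.85, Pmaip1 0.51, Bbc3 0.00125, Bad -0.0710 and Bid -0.56, a member median of -0.0349 and 0 past 2-fold. The 75th percentile over each array's own unflagged probes, also added after seeing the data, put Bmf at 0.98 and left 0 past 2-fold; over single spots and over probes unflagged on both arrays, added likewise, Bmf was at 1.02 and 1.08. Quantile normalization, loess and the deposited table put Pmaip1 above Bmf, and normexp kept the order. Quantile normalization gave Pmaip1 0.98, Bcl2l11 0.0778 and Bid -0.59 with 0 past 2-fold, loess gave Bmf 0.79 and Bid -0.67 with 0 past 2-fold, normexp left 0 past 2-fold with Bmf at 0.93, and the deposited log2 table gave Bmf 0.84, Pmaip1 1.01 and Bcl2l11 0.0880. With no filter on dim probes Bad was at -0.49 and 2 members, Bmf and the dim Hrk, were past 2-fold. With the negative control call Bad was again at -0.49 and 2 members were seen on 1 array only, against 0 in the main setting. A threshold of 1.5-fold gave 2 members higher and 3-fold gave 0, where 20.2% and 0.29% of measured genes were higher. A change of scaling reference moves every gene by the same amount, and Bad moved when its dim probe was averaged in. Why the references gave different amounts, and the cause of the other shifts, was not tested.

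Over all measured genes, 2.32% were at least 2-fold higher in the main setting, 32.1% with median scaling, 0.67% centred on the median gene and 0.58% with the 75th percentile over probes above background on both arrays. In the same order 4.44%, 1.33%, 7.05% and 8.11% were at least 2-fold lower. The shares higher and lower were 3.31% and 3.73% with quantile normalization, 1.12% and 5.05% with loess, and 0.88% and 2.19% with normexp. They were 4.09% and 3.41% in the deposited table, and 1.28% and 5.30% with each array's own unflagged probes. No paired analysis was possible because each population was 1 array, and no replicate could be left out. The unequal share of spots above background limits what can be said of dim probes, which are those of Bik, Hrk and the second probe of Bad.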
